A study of Mus musculus with 24 samples.

Results

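The probes described here are those for mouse miRNAs whose names begin with miR-297, miR-466, miR-467 or miR-669. They were taken by the start of their names, with earlier results of these data known. The panel carried 33 such probes, covering 39 miRNA names, among its 566 mouse miRNA probes; 4 of the 33 probes each detect several of these miRNAs and were counted as 1 probe each. Most of the genes for these miRNAs lie in an intron of Sfmbt2. RNA came from serum exosomes of male C57BL/6N mice aged 40 weeks, with 6 samples in each of 4 groups. ND+oil mice had normal chow and tap water, and corn oil into the abdomen at 1 injection a week. WD+oil mice had the same oil injections with a western diet, made up of high-fat food and water sweetened with fructose at 23.1 g/L and glucose at 18.9 g/L. ND+CCl4 and WD+CCl4 mice had the corresponding diets, with carbon tetrachloride (CCl4), a liver toxin, in the injections. The labels name the 4 groups normal, NASH (fatty liver inflammation), cirrhosis and HCC (hepatocellular carcinoma), in that order; they do not say whether each sample came from its own animal, so the spread behind each p-value may be technical.

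Sfmbt2 encodes a Polycomb-group protein and is an imprinted gene, expressed from the paternal copy in the extraembryonic tissues of the mouse. The miRNA cluster in its intron arose by repeated duplication in rodents, and mice that lack the cluster have poorly formed placentas. Its miRNAs are highly alike and rich in alternating purine and pyrimidine bases, so that probes and names within the cluster are close to each other. Work in mouse cells has linked miR-669a to repression of the muscle regulator MyoD, miR-466l to stabilisation of interleukin-10 messenger RNA, miR-466h to cell death after glucose deprivation, and miR-467 to repression of thrombospondin-1 under high glucose.

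The name of the cluster did not cover all of its listed members. In the RefSeq annotation of GRCm38.p6, which was used for names and gene order, 37 of the 39 miRNA names had a gene, and 28 of the 33 probes had at least 1 gene inside Sfmbt2. The other 5 probes, miR-466i, miR-466j, miR-466k, miR-467f and miR-467g, had genes only on other chromosomes. Copy number also differed: miR-669a had 12 genes and miR-467a had 10, all inside Sfmbt2, while miR-669f and miR-466g had 1 each. The order of the 71 annotated genes of these names inside Sfmbt2 placed Mir669f at position 3, and Mir669o, Mir466g and Mir466h next to each other at positions 64, 65 and 66.

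RefSeq mature sequences were held for 5 of the 39 names, and they are shown because 4 of the 5 belong to probes with genes only outside Sfmbt2, miR-467f among them, the only such probe that was tested. Capitals mark the seed, bases 2 to 8, which a miRNA uses to pair with its targets. The positions are those of the mature RNA in GRCm38.p6: miR-467f at chr11:69635419-69635439 on the minus strand, miR-467g at chr5:34732872-34732892 on the minus strand, miR-466j at chr10:60960802-60960824 on the plus strand, miR-466k at chr3:85467396-85467418 on the plus strand, and miR-467h at chr9:115381898-115381919 on the plus strand.
miR-467f: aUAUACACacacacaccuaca
miR-467g: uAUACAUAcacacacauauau
miR-466j: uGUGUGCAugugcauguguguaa
miR-466k: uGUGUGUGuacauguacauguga
miR-467h: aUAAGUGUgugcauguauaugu

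The 5 miRNAs had 5 different seeds, so sharing a number in the name did not mean sharing a seed. No core was common to all 5: the longest identical stretch of miR-466j and miR-467f was 2 bases. They held instead 1 of 2 short repeats, ACACAC in miR-467f and miR-467g, and GUGUGU in miR-466j, miR-466k and miR-467h. Each held ACACAC or GUGUGU, read 5′ to 3′ on the miRNA strand with overlaps allowed, against 28 of the 1679 mature miRNAs in the RefSeq table (1.67%). The longest run of alternating A and C, or G and U, was 12 bases in miR-467f, 9 in miR-466k and miR-467g, and 7 in miR-466j and miR-467h. miR-467f and miR-467g had an identical stretch of 11 bases, as did miR-466j and miR-467h. An identical stretch of 12 or more bases was found between miR-467f and 1 other mature miRNA of the table, miR-466i-3p. Of the 39 member names 5 were matched in that table, so likeness to members not matched there was not judged. The miR-467f probe was above background in 9 samples, as described below, and the miR-467g and miR-466i probes in none. The panel names no arm for miR-466i, so its probe may not be that of miR-466i-3p.

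Values were measured on the NanoString nCounter panel, in which each probe is tallied as a digital count. The deposited values, called deposited units here, are those counts times 1 factor per sample (0.397 to 5.72); the counts were recovered by dividing that factor out. A probe was taken as above background in a library if its count was above a limit set from the 8 negative control probes, their mean plus 2 SD, which came to 31.0 to 71.2 counts. Total counts ran from 42478 to 1496818 per library, and the factor turned the limit into 16.8 to 277 deposited units, so a given deposited value can be above background in one library and under it in another. Counts of different probes also depend on how well each probe captures its target, so levels are not set against each other between miRNAs. A pair of libraries, the first replicates of ND+CCl4 and of WD+CCl4, differed widely from the other 22, as described further on, and differences of members in the CCl4 groups are also given without them where they moved most.

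Of the 33 probes, 6 (18.2%) were above the limit in at least 6 of the 24 samples, 9 were above it in 1 to 5 samples, and 18 (54.5%) in none. No member was above it in all 24. Across all mouse miRNA probes, 158 of 566 (27.9%) were above the limit in at least 6 samples and 294 (51.9%) in none. In the Dlk1-Dio3 cluster, another large imprinted miRNA cluster of the mouse, the counts were 9 of 60 (15%) and 33 of 60 (55.0%). The members as a set took up 0.588% to 1.25% of a library's total count in ND+oil, 0.384% to 0.727% in WD+oil, 0.136% to 0.962% in ND+CCl4 and 0.184% to 0.595% in WD+CCl4, background counts included. The 1.25% came from ND+oil replicate 3, the shallowest library, with 42478 counts in total. Its 33 member probes summed to 529 counts, where the negative controls averaged 14.4 counts a probe. Shares therefore depend on depth and background, and they were not tested between groups.

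The 6 members above the limit in at least 6 samples were miR-466g in 23 samples, miR-669f in 22, miR-669a in 18, miR-466d-3p in 14, the shared probe for miR-466a-3p and miR-466b-3-3p in 11, and miR-467f in 9. Of the miRNAs with most gene copies, miR-669a, with 12, was thus above the limit in 18 samples, while miR-467a, with 10, had 3 to 31 counts and was never above it. miR-467f was above the limit in 2 ND+oil, 0 WD+oil, 3 ND+CCl4 and 4 WD+CCl4 samples. The remaining members were each above the limit in 3 samples at most. miR-466j was above the limit in WD+CCl4 replicate 6 and in replicates 4 and 5 of ND+CCl4, with 216 counts in replicate 5 of ND+CCl4 against a limit of 71.2. miR-466h was above it in replicates 1 and 6 of WD+CCl4 and in ND+CCl4 replicate 1. miR-467b, miR-467c, miR-669j, miR-669o and the shared probe for miR-297a, miR-466f and miR-669b were each above it in the same pair of libraries, the first replicates of ND+CCl4 and WD+CCl4. miR-669h-5p was above it only in replicate 2 of ND+CCl4, and miR-297c only in replicate 1 of WD+CCl4. The 18 probes never above the limit had between 1 and 41 counts.

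**Figure D1:**
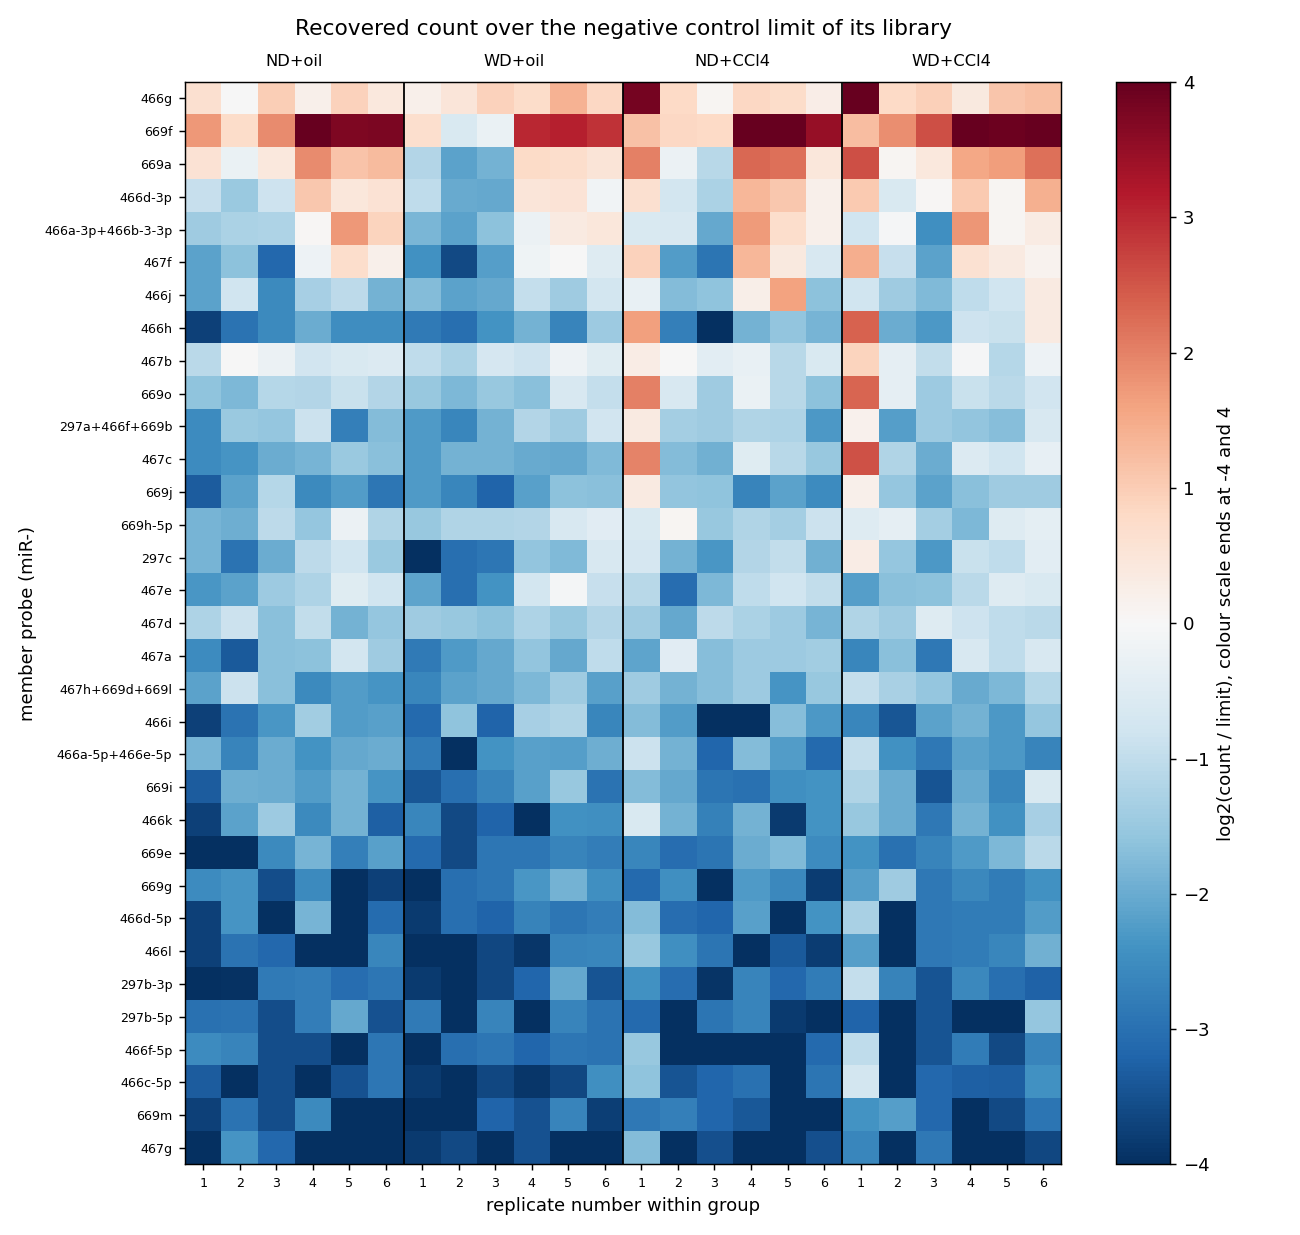
Recovered count of each of the 33 member probes (rows) in each of the 24 samples (columns, by group), over that library's negative control limit, as log2 of the ratio; red is above the limit and blue under it, and the colours end at -4 and 4. The 6 members above the limit in at least 6 samples form the upper rows, and 18 rows hold no red cell.

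The clearest difference between groups was in miR-669a, which was lower in serum exosomes of mice on the western diet than of mice on chow, both with oil injections. In ND+oil its deposited values were 257, 141.7, 264, 216, 98.2 and 173 in replicates 1 to 6. In WD+oil they were 74.1, 62.9, 44.1, 81.7, 62.5 and 71.9. All 6 WD+oil samples lay under all 6 ND+oil samples. The log2 means were 7.51 ± 0.55 in ND+oil and 6.04 ± 0.31 in WD+oil (SD, n = 6 each), a difference of -1.46 (SE 0.30, 95% confidence interval -2.09 to -0.84), or 2.76-fold lower, on the log2(value + 1) scale. The limma adjusted p was 0.00332, with 6 of 6 WD+oil samples under the ND+oil mean. In this comparison 10.8% of all 158 miRNAs tested passed the test in either direction, and 1 of the 6 tested members did. Groups that did not overlap were found for 15.8% of all miRNAs tested and for 1 of the 6 members.

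The depth behind this fall differed between replicates 1 to 3 and replicates 4 to 6. In replicates 1 to 3 of WD+oil the recovered counts of miR-669a were 19, 11 and 10, all under the limits of those libraries, so the level reached there was not measured above background. ND+oil replicate 2 was under its limit too. In replicates 4 to 6 all 6 libraries were above their limits, with 174, 73 and 162 counts in ND+oil and 76, 60 and 77 in WD+oil. Fitted on replicates 4 to 6 alone, the log2 difference was -1.10 (limma adjusted p = 0.0324), with groups that did not overlap in deposited units. On replicates 1 to 3 alone it was -1.83 (limma adjusted p = 0.161). With the mean of the negative controls subtracted first it was -2.84 (limma adjusted p = 0.00701). With every value under its limit raised to the limit, a choice made after the data were seen, it was -0.65 (limma adjusted p = 0.454), and with each library scaled by the spike-in probes it was -1.34 (limma adjusted p = 0.912). Summed markers of blood and liver cells were set side by side in these groups as well, without a test. The summed deposited values of the 3 platelet miRNAs, miR-126-3p, miR-191 and miR-223, all tested, were 21703 to 32266 in ND+oil and 8982 to 22534 in WD+oil. Those of the 2 myeloid miRNAs, miR-223 and miR-142-3p, were 19958 to 28484 and 7125 to 19567. Both lists hold miR-223, which makes up most of each sum, at 19118 to 28186 in ND+oil and 6957 to 19372 in WD+oil, so the lists are not independent. The platelet sums of the groups overlapped, and the myeloid sums did not. Taken singly, miR-223 overlapped, as did miR-126-3p, at 1211 to 3194 and 794 to 1723. So did miR-191, at 1192 to 2874 and 694 to 1761, and miR-142-3p, at 298 to 866 and 168 to 345. The summed hepatocyte miRNAs, 4 of 5 tested, were 1215 to 2222 in ND+oil and 7761 to 22420 in WD+oil. The 4 red cell miRNAs overlapped, at 62263 to 125841 and 42224 to 98851, as did the 3 lymphoid ones, of which miR-155 was above background in 0 samples. The part of these cells in the fall of miR-669a was not tested, and in serum fewer vesicles from a cell type cannot be told apart from less of the miRNA in each.

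**Figure D2:**
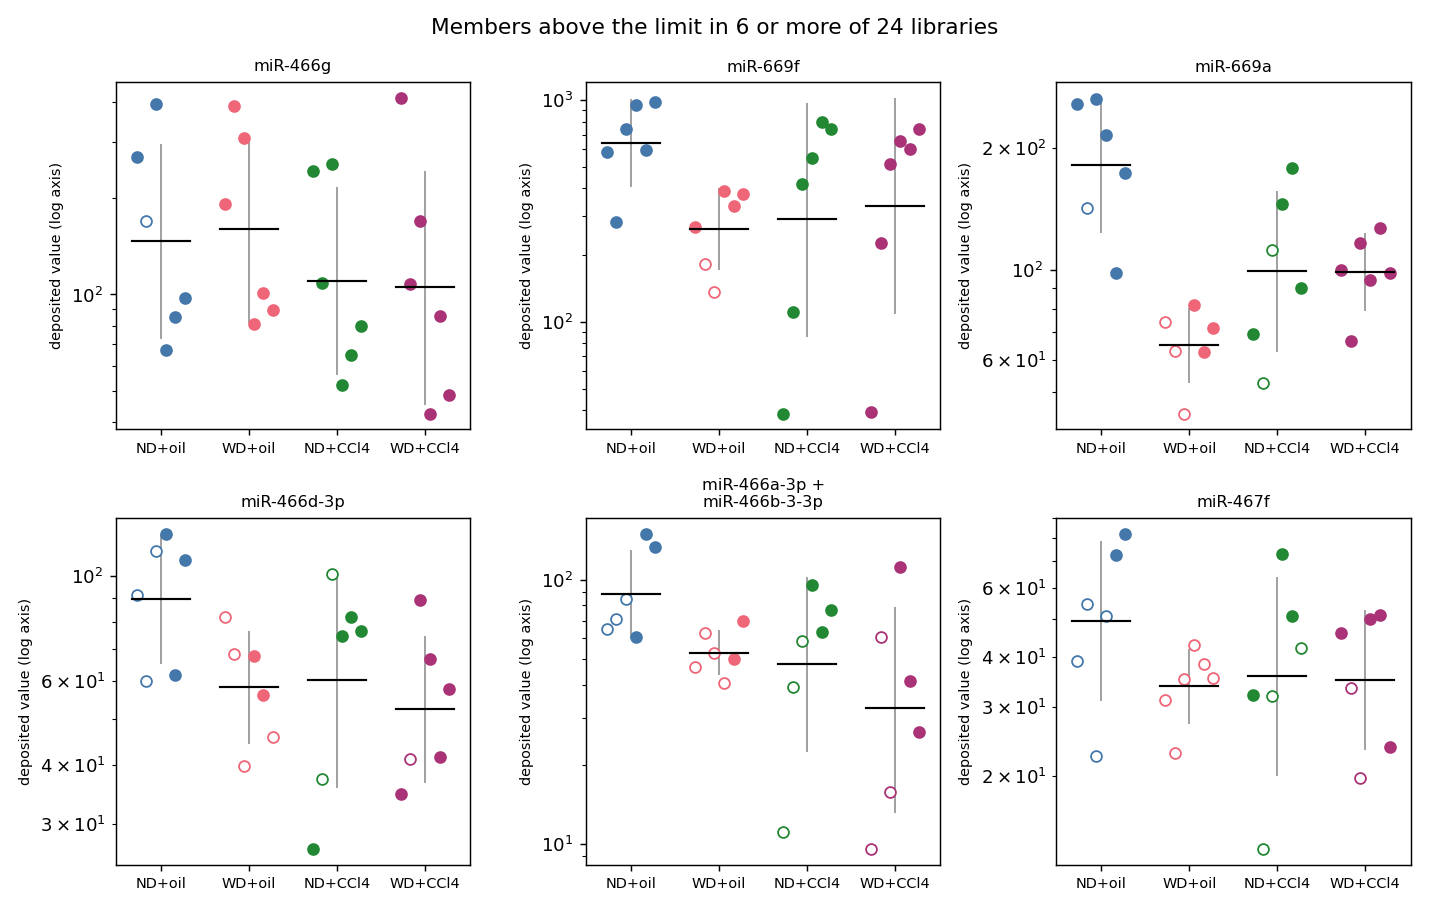
Deposited value (log axis) of each of the 6 tested members in every sample by group; points are samples, horizontal bars the group means of log2 values, vertical lines 1 SD either way, and open points lie under the negative control limit of their own library. The 6 WD+oil points of miR-669a lie under its 6 ND+oil points.

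The other 5 tested members did not pass the test between the 2 oil groups. miR-669f, which lies among the first genes of the cluster, had deposited values of 583, 283, 743, 957, 597 and 980 in ND+oil. In WD+oil it had 269, 183, 137, 390, 332 and 377.1, with replicates 2 and 3 under the limits of their libraries. Its groups overlapped through replicate 2 of ND+oil, and the log2 difference was -1.28 (SE 0.68, limma adjusted p = 0.22). The spread used for that test came from all 4 groups. The SD of miR-669f on the log2 scale was 0.66 and 0.61 in the oil groups (ND+oil, then WD+oil) and 1.75 and 1.61 in the CCl4 groups (chow, then western diet); without replicate 1 of each CCl4 group, at 38.5 and 39.3 deposited units, it was 1.16 and 0.67 there (n = 5 each). With only the 2 oil groups fitted, the limma adjusted p was 0.0063; without the pair of libraries that stood apart it was 0.0209, and on replicates 4 to 6 alone, where the difference was -1.17, it was 0.0112. The shared probe for miR-466a-3p and miR-466b-3-3p differed by -0.72 (limma adjusted p = 0.351), miR-466d-3p by -0.61 (0.248) and miR-467f by -0.54 (0.368), while miR-466g differed by 0.13 (0.896). The median over the 6 members was -0.67, beside -0.14 over all 158 miRNAs. Values were below 0 for 5 of the 6 members and for 91 of the 158 miRNAs (57.6%). With no filter on the limit, the median was -0.16 over the 33 member probes, beside -0.12 over all mouse miRNA probes.

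CCl4 on chow gave no call among the members. In ND+CCl4 against ND+oil, 0 of 6 members passed the limma test, 1 of them with an unadjusted p under 0.05, where 1.27% of all miRNAs passed and 35 had such a p. miR-669a had deposited values of 69.5, 52.4, 111, 145, 179 and 90.1 in ND+CCl4, with replicates 2 and 3 under the limits of their libraries. The log2 difference was -0.86 (SE 0.30, limma adjusted p = 0.151), with 6 of 6 samples under the ND+oil mean, and the groups overlapped. miR-669f, at 38.5 to 794 deposited units in ND+CCl4 against 283 to 980 in ND+oil, differed by -1.14 (limma adjusted p = 0.322). The 38.5 came from ND+CCl4 replicate 1, which stood apart; without that library, or without the pair, the difference was -0.56, and over the 24 fits that each left out 1 library it ran from -1.43 to -0.56. Without the pair, miR-669a differed by -0.76 (limma adjusted p = 0.231). All 6 members had values below 0, with a median of -0.71, beside -0.16 and 60.8% of all miRNAs tested. That direction depended on the scaling: by the spike-in probes the members had a median of 0.68 and miR-669a was at 0.54, where the median over all miRNAs was 1.22. In deposited units with no filter on the limit, the medians lay close together. They were -0.59 over the 33 member probes and -0.54 over all mouse miRNA probes.

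In WD+CCl4 against ND+oil, the comparison of both treatments with neither, 0 of 6 members passed the test where 15.8% of all miRNAs did, and 3 members and 55 miRNAs in all had an unadjusted p under 0.05. miR-669a had deposited values of 99.6, 66.8, 117, 94.4, 127.1 and 98.0 in WD+CCl4, which overlapped ND+oil. It lay just outside the threshold, with a log2 difference of -0.87 (SE 0.30, limma adjusted p = 0.0512). The shared probe for miR-466a-3p and miR-466b-3-3p, at 60.7 to 149 deposited units in ND+oil and 9.59 to 111 in WD+CCl4, differed by -1.41 (SE 0.50, limma adjusted p = 0.0542). In both groups that probe was above the limit only in replicates 4 to 6. Its median recovered count was 32 in ND+oil and 39 in WD+CCl4, so the fall in deposited units was not seen in the median counts. miR-466d-3p differed by -0.76 (limma adjusted p = 0.11) and miR-669f by -0.94 (limma adjusted p = 0.35), or by -0.33 without WD+CCl4 replicate 1, which stood apart. Both near calls changed sides of the threshold with single libraries left out. miR-669a passed the limma test without ND+oil replicate 5 (adjusted p = 0.028), ND+CCl4 replicate 1 (0.0301), ND+CCl4 replicate 2 (0.0441) or ND+CCl4 replicate 5 (0.0388). The shared probe passed it without ND+CCl4 replicate 1 (adjusted p = 0.0187), WD+CCl4 replicate 2 (0.043) or WD+CCl4 replicate 4 (0.0188). The ND+CCl4 libraries are in neither group compared, so leaving them out kept the difference and changed the spread, which came from all 4 groups. All 6 members had values below 0, with a median of -0.82, beside -0.17 and 58.9% over all miRNAs. This direction too depended on the scaling: by the spike-in probes miR-669a was at 0.56 and the median over the members at 0.61, where that over all miRNAs was 1.25. In deposited units with no filter on the limit, the median was -0.87 over the 33 member probes, beside -0.57 over all mouse miRNA probes. Median differences over all probes thus lay further below 0 when probes near background were kept. The factors ran from 1.07 to 5.63 in ND+oil and from 0.457 to 1.98 in WD+CCl4. The part of background counts in the medians of the members was not tested. The 3 comparisons with ND+oil share those 6 control samples.

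Adding CCl4 to the western diet, or the western diet to CCl4, moved no member past the test. In WD+CCl4 against WD+oil, 0% of all miRNAs and 0 of 6 members were called by limma, and 0 members and 8 miRNAs had an unadjusted p under 0.05. The member with the smallest p was miR-669a, at 0.59 (SE 0.30, limma adjusted p = 0.887). In WD+CCl4 against ND+CCl4, 0.633% of all miRNAs and 0 of 6 members were called, and 0 members and 19 miRNAs had an unadjusted p under 0.05. The smallest p there belonged to the shared probe for miR-466a-3p and miR-466b-3-3p, at -0.54 (limma adjusted p = 0.832), while miR-669a differed by -0.01. Medians over the members were -0.05 in both, beside 0.00 and -0.02 over all miRNAs; by the spike-in probes the first became 1.25, beside 1.304. Without the pair of libraries that stood apart, miR-669f differed by 0.95 in WD+CCl4 against WD+oil (limma adjusted p = 0.521), where it was 0.34 with them.

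The interaction asks whether the diet difference changed with CCl4. It was called by limma for 0% of all miRNAs and 0 of 6 members; 1 member and 6 miRNAs had an unadjusted p under 0.05. That member was miR-669a, with an interaction of 1.45 on the log2 scale (SE 0.43, limma adjusted p = 0.193): its diet difference was -1.46 with oil and -0.01 with CCl4, and these were not shown to differ. miR-669f had an interaction of 1.48 (SE 0.96, limma adjusted p = 0.926). The F-test of any difference among the 4 groups passed for 10.8% of all miRNAs and for 1 of 6 members, again miR-669a (limma adjusted p = 0.0173).

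**Figure D3:**
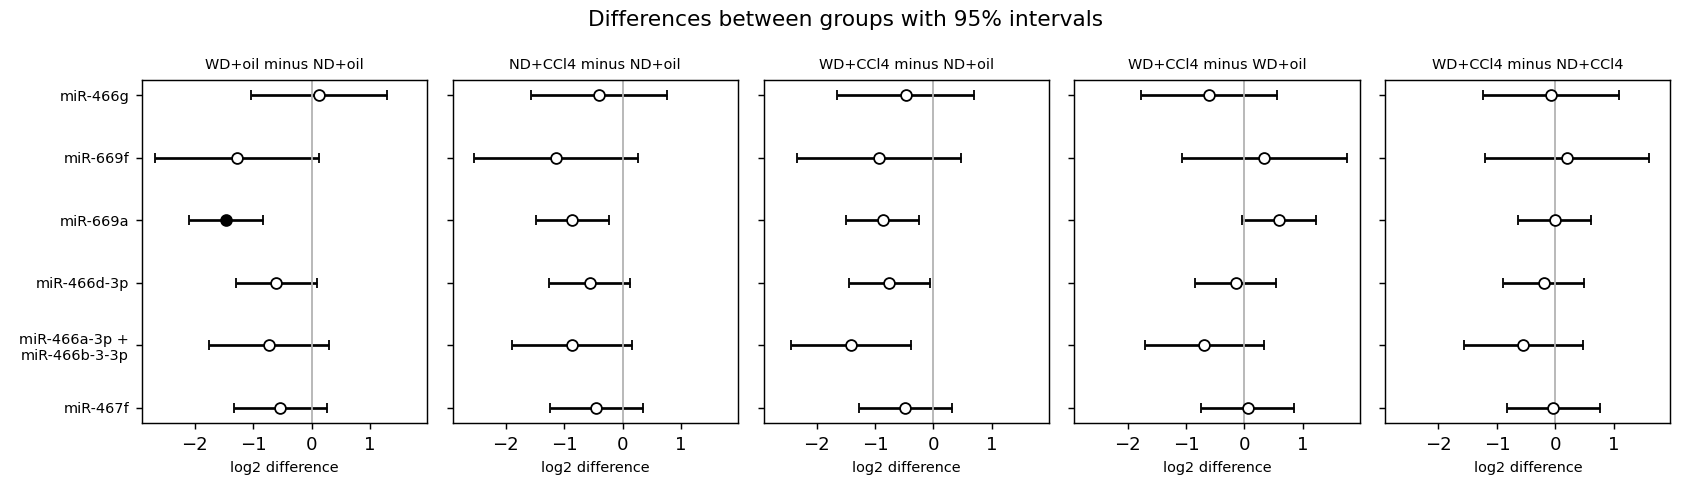
Log2 difference of each of the 6 tested members in the 5 group comparisons, with 95% confidence intervals; filled points passed the adjusted threshold of 0.05. The filled point is miR-669a in WD+oil against ND+oil, at -1.46.

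By their medians, the tested members other than miR-466g were higher in ND+oil than in WD+oil. miR-669a had medians of 194.3 deposited units in ND+oil, 101 in ND+CCl4, 98.8 in WD+CCl4 and 67.4 in WD+oil; no pair of neighbours in that order passed the limma test. miR-669f had medians of 670, 485.3, 560 and 301 in ND+oil, ND+CCl4, WD+CCl4 and WD+oil. For miR-466d-3p the lowest, median and highest values were 59.96, 99.6 and 123 in ND+oil, 39.7, 62.0 and 81.9 in WD+oil, 26.6, 75.6 and 101 in ND+CCl4 and 34.7, 49.7 and 89.0 in WD+CCl4. For the shared probe for miR-466a-3p and miR-466b-3-3p they were 60.7, 77.6 and 149 in ND+oil, 40.8, 51.5 and 70.0 in WD+oil, 11.1, 60.9 and 95.7 in ND+CCl4 and 9.59, 34.1 and 111 in WD+CCl4. For miR-467f, outside Sfmbt2, they were 22.5, 52.7 and 82.3 in ND+oil, 22.9, 35.4 and 43.0 in WD+oil, 13.1, 37.2 and 73.2 in ND+CCl4 and 19.8, 39.8 and 51.3 in WD+CCl4. For all 3 of these probes the 4 groups overlapped, and the probes were above background in 9 to 14 of the 24 libraries.

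miR-466g, the member above the limit most often, differed from the other tested members in how its counts moved between replicates 1 to 3 and replicates 4 to 6. Leaving out the pair of libraries that stood apart, the median total count was 61182 in the 10 libraries of replicates 1 to 3 and 254312 in the 12 of replicates 4 to 6, a ratio of 4.16. Over the same libraries the median count rose from 74 to 774 for miR-669f (10.5 times), 5.48 times for miR-669a, from a median of 27, from 8 to 49 for miR-467f (6.13 times), from 12.5 to 77.5 for the shared probe for miR-466a-3p and miR-466b-3-3p (6.2 times) and from 20 to 89.5 for miR-466d-3p (4.48 times). For miR-466g it went from 60 to 88.5 (1.48 times), close to the negative control limit, which went from 38.5 to 48.4 (1.26 times). In the 22 libraries miR-466g stayed between 31 and 118 counts. Its deposited values followed the factor instead: in ND+oil they were 270, 169 and 394 in replicates 1 to 3 and 66.9, 84.8 and 97.2 in replicates 4 to 6. In WD+oil they were 309 or higher in replicates 2 and 3 and 80.6, 101 and 89.6 in replicates 4 to 6. In both groups the values of replicates 1 to 3 lay above those of replicates 4 to 6, while the groups themselves overlapped. The 2 sets of replicates overlapped in depth: ND+CCl4 replicate 2 held 209704 counts in total, and ND+oil replicate 5 held 178252. ND+CCl4 replicate 2 was the only library of the 10 that was deeper than ND+oil replicate 5, the shallowest of the 12. With so little overlap, depth and set cannot be fully told apart. Why the depths of the sets differ is not given in the sources used here, and the part of depth in these values was not tested.

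**Figure D4:**
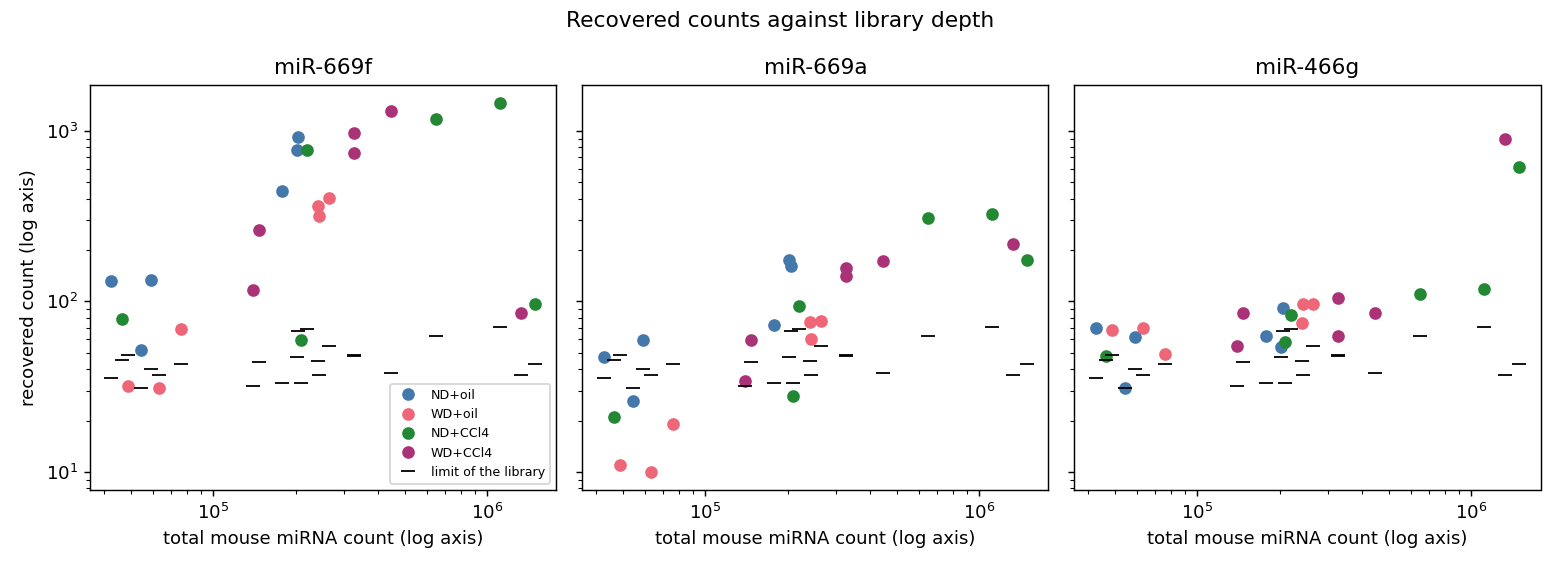
Recovered count of miR-669f, miR-669a and miR-466g against the total count of the library, both on log axes; points are the 24 libraries, coloured by group, and dashes their negative control limits. In 22 libraries miR-669f and miR-669a tend to be higher at higher totals, but not in each library. ND+CCl4 replicate 2 has 59 counts of miR-669f at a total of 209704. miR-466g stays between 31 and 118 counts in the 22 libraries, and the pair that stood apart lie at 611 and 898 counts for it.

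In the pair of libraries that stood apart, both numbered replicate 1 of a CCl4 group, the balance among the members was different. miR-466g had 611 and 898 counts there. miR-669f had 97 and 86 counts, and miR-669a 175 and 218. The count of miR-669f was thus 0.554 and 0.394 times that of miR-669a, against 2 to 8.26 times (median 4.43) in the other 22 libraries. miR-466h, whose gene follows that of miR-466g in Sfmbt2, had up to 187 counts there, and 2 to 48 in the other 22. miR-669o, on the other side of miR-466g, had 173 and 183 counts, with 9 to 52 elsewhere. miR-467c, at position 13 in Sfmbt2, had 170 and 216, with 6 to 45 elsewhere, and miR-669j, at position 21, had 55 and 42, with 4 to 18. The shared probe for miR-297a, miR-466f and miR-669b, with genes at positions 67 and 69 among others, had 55 and 41, with 5 to 32. Genes near that of miR-466g did not all follow. miR-466d-3p (position 60), above the limit in both libraries, had 67 and 76 counts, with 9 to 159 elsewhere. miR-669m (positions 61 and 62), miR-466l (68) and miR-669i (70) were not higher in both libraries than in all of the other 22. These last probes were above the limit in no library, so they cannot show whether their miRNAs rose. In counts, 9 of the 33 members were higher in both libraries than in all of the other 22 (27.3%), and so were 27.6% of all mouse probes. In deposited units 1 member, miR-466h, was above all others, with 8.5% of all probes. A further 7 members lay below all others, with 15.4% of all probes: miR-466a-3p with miR-466b-3-3p, miR-466d-3p, miR-466j, miR-467a, miR-467d, miR-669e and miR-669f. Of those 7, only miR-466d-3p and miR-669f were above the limit in the pair. In counts, 0 members lay below all of the other 22. The pair had the smallest factors (0.397 and 0.457), which lower the deposited value of a given count. In the same libraries the hepatocyte miRNAs summed to 132186 and 109839 deposited units, the highest of their groups, and the platelet miRNAs to 3413 and 3127, the lowest; their part in the members' balance was not tested. Without both libraries 2 of 6 members, miR-669a and miR-669f, were called lower in WD+oil against ND+oil, where 32.9% of all miRNAs tested were called. In WD+CCl4 against ND+oil 2 of 6 were called, miR-669a and the shared probe for miR-466a-3p and miR-466b-3-3p, where 27.2% of all were called. Calls thus rose among all miRNAs as well as among the members.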

How the data were processed

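The authors deposited 1 table of signal values, 626 features by 24 samples, as scaled digital counts of the NanoString nCounter Mouse v1 miRNA Panel; RNA was extracted with a miRNeasy micro kit, per the labels' protocols. How exosomes were isolated and how values were scaled is not given in the sources used here. The values show that the deposited signal is a count times 1 factor per sample, with control rows unscaled: dividing it out gave whole numbers for 14571 of 14571 values above 1 (tolerance 0.05), while 117 values listed as 1 were given a count of 1.

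Members are rows named miR-297, miR-466, miR-467 or miR-669. The members and lists were chosen with earlier results of these data known. Tested were the 158 miRNAs above a limit (mean of the 8 negative controls of a library, plus 2 SD) in 6 or more samples. limma 3.58.1 (R 4.3.3; lmFit, eBayes with a trend) was fitted to log2(deposited value + 1) on 4 group means over 24 samples, two-sided, with Benjamini-Hochberg adjustment over the 158 miRNAs and a threshold of 0.05. A trended limma test and recovery of counts were tested on simulated data. Named were all tested members, the member with the smallest p where none was called, and the fixed hepatocyte, red cell, platelet, myeloid, lymphoid and Dlk1-Dio3 lists; the tested members' sequences were to be printed, and the other 4 sequences, and examples from the libraries that stood apart, were chosen after the values were seen. Alternatives were pseudocounts, filters, scaling, background subtraction, covariates, sets of replicates, left-out libraries and, on the recovered counts, edgeR (4.0.16) or DESeq2 (1.42.0).

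Replicate numbers come from the sample titles. Same-numbered samples deviated together in all 6 pairs of ND+oil with WD+oil (correlations 0.323 to 0.747) and of ND+CCl4 with WD+CCl4 (0.28 to 0.844). Libraries held 42478 to 1496818 counts, which sets the precision of low values. Sequences and gene order are from RefSeq (GRCm38.p6); the table itself names no build.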

Additional observations from a re-analysis of the deposited data

Results flagged for a closer look

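miR-466g in WD+CCl4 was far from the rest of its group in replicate 1, at 410 deposited units, where the other 5 samples lay between 42.5 and 170. It is the library that stood apart in the report, and its recovered count of miR-466g was 898. The test for a distant sample was run on 24 combinations of a tested member and a group and marked 1, where chance marks about 1 in 20. The cause was not tested.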

How the results depend on the processing

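The count of members called in WD+oil against ND+oil was 1. It was 0 with spike-in scaling, with replicates 1 to 3 alone, and with values under the limit raised to it. It was 2 with only the groups compared, without both libraries that stood apart, and with replicates 4 to 6 alone, and 2 with background subtracted in either of the last 2 settings; raising to the limit and these joint settings were chosen after seeing the data. Without each replicate in turn it stayed 1 (1 to 1). In WD+CCl4 against ND+oil the count was 0. It was 1 with a pseudocount of 10 and with a filter of at least 12 of 24 samples, and 2 with the replicate block, with the set of replicates as a term, and without both libraries that stood apart; without each replicate in turn it ran from 0 to 2. The replicate block changed no other call among the members, and left miR-669a at -1.46 in WD+oil against ND+oil (limma adjusted p = 0.0032). The other comparisons kept 0 calls under each alternative run. miR-669a in WD+oil against ND+oil was called by edgeR (adjusted p = 0.0163) and DESeq2 (0.000474), and in 24 of 24 fits without 1 replicate (-1.64 to -1.35). Members above the limit in at least 6 samples were 6; in at least 1 sample there were 15, in all 24 samples 0, and with deposited values set against unscaled controls 12. A filter of all 24 samples was not run, since no member passes it. The causes of these changes were not tested. The negative control limit bounds most members in every library: 1 to 12 of the 33 were above it.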
